A study of Mus musculus with 24 samples.

Results

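The members described here are 47 genes of Wnt signalling and planar cell polarity: ligands, R-spondins, receptors and co-receptors, secreted antagonists, the cytoplasmic and nuclear parts of the beta-catenin route, feedback targets and planar polarity genes. They were taken from a list of names, matched by symbol to the 31053 gene identifiers of each count table, and all 47 were found, each under 1 identifier. RNA from the mouse retinal pigment epithelium (RPE), a layer of pigment cells behind the photoreceptors, was counted in 24 libraries, 4 in each of 6 groups. Mutants carried a floxed Ift20 gene with the Dct-Cre driver and were labelled IFT20 floxed Cre Positive. Controls carried the driver as well and were labelled Control: Cre Positive; their Ift20 alleles, and whether mutants were homozygous, are not stated. Ages were postnatal days 11 and 29 (P11 and P29) and 3 months (3M), all on a mixed strain background and with sex not collected. Dct-Cre acts in pigment cells, so other cells in a preparation are not its target. Replicates are labelled biological, but whether a library stands for 1 animal or for pooled animals is not stated, and the labels record that RNA was mixed without saying whether samples were combined. The p-values then measure only how these libraries vary, and that spread may be technical.

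Wnt proteins bind Frizzled receptors. With the co-receptors Lrp5 and Lrp6 they release beta-catenin from a destruction complex built on Axin and Apc, so that it can act with TCF/LEF factors on target genes, among them the negative feedback genes Axin2, Nkd1, Rnf43, Znrf3 and Notum. Without Lrp5 and Lrp6, some Wnts, such as Wnt5a, act through Frizzled, Ror and Dishevelled proteins on the cytoskeleton. Planar cell polarity uses Frizzled, Vangl, Prickle and Celsr proteins on opposite sides of a cell to orient it within its sheet, cilia and their basal bodies included. In the mouse eye, beta-catenin signalling is needed early for cells of the optic cup to become RPE. The protein made from Ift20 belongs to intraflagellar transport, the traffic along the cilium by which cilia are built.

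The 250 bases upstream of the RefSeq start of 3 members are shown because the results turn on them: Fzd4 and Fzd7 are receptor genes that were lower together in P11 mutants, and Axin2 is the feedback gene most often used to read beta-catenin activity. They come from the RefSeq promoter table on GRCm38.p6, are all on the plus strand, and span chr7:89404116-89404365, chr1:59481897-59482146 and chr11:108920099-108920348. Capitals mark CCAAT boxes, searched on both strands as CCAAT. Axin2 has none in the 250 bases shown, but is among the members with CCAAT in a window of 300 bases.
Fzd4: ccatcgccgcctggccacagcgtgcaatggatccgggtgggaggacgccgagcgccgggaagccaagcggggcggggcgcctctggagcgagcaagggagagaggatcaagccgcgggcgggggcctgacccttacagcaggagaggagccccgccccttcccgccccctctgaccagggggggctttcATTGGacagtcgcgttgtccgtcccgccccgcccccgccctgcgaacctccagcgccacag
Fzd7: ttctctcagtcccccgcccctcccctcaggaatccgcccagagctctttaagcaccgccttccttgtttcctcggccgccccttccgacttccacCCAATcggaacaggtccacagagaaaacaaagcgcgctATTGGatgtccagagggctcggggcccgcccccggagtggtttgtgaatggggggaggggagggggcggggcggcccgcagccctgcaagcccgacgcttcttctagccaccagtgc
Axin2: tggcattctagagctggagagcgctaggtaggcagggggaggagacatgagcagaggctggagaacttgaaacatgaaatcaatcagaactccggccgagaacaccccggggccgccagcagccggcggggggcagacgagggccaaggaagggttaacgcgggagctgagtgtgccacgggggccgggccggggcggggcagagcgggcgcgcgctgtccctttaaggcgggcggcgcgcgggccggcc
All 3 are rich in G and C, at 72.8% in Fzd4, 65.2% in Fzd7 and 69.2% in Axin2 over these 250 bases. The median over all 32851 promoter windows of 300 bases was 52.7%, and it was 65.2% over the 40 windows that belong to 30 of the members. The windows of 300 bases of these 3 genes held no match to CTTTGA (the core of TCF/LEF sites), to CACGTG or CATGTG (the E-box read by MITF) or to TAATCC (read by OTX2), on either strand. CTTTGA occurred in 6 of the 40 member windows (15%), in Dkk1, Fzd1, Gsk3b, Lef1, Ror1 and Wnt5b, and in 16% of all windows. The E-box occurred in 3 of 40 (7.5%) and in 20.4% of all windows, TAATCC in 5 of 40 (12.5%) and 7.06%, and CCAAT in 14 of 40 (35%) and 37.4%. These matches describe letters in a window and were tied to no binding data.

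Libraries held 1513440 to 2889946 gene counts, spread over 13132 to 14709 genes. Levels are in CPM, which relates each count to the TMM-scaled total of its library. In CPM of the unscaled library total, a count of 3 is worth 1.04 to 1.98. This floor covers counting error only. Of the 47 members, 36 passed the filter on low counts, which asked for about 10 counts in the median library (4.19 CPM) in at least 4 libraries, and 11 did not. The filter took 12303 genes in all. Only Nkd1 among the 36 was over 4.19 CPM at 1 age only. Summed RPE markers ran at 20482 to 21401 CPM in P11 mutants and 21959 to 22861 CPM in P11 controls, and reached 66874 to 70269 CPM in 3M mutants and 66869 to 69849 CPM in 3M controls. Rod markers were present in every library and summed to more in mutants at each age, for example 13951 to 15133 CPM in P29 mutants and 9716 to 10257 CPM in P29 controls. The targeted gene Ift20 had a log2 fold change, mutant over control, of -0.27 at P11 (edgeR adjusted p = 0.353), -0.60 at P29 (adjusted p = 0.0112) and -0.26 at 3M (adjusted p = 0.547); which exon is floxed is not stated and a 3' tag may lie outside it, so Ift20 does not check the labels.

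The kit reads each transcript once, at its 3' end, so CPM levels do not grow with transcript length. Levels of different genes are set beside each other here on that ground alone. Reads in no feature or aligned to several places were not counted, and annotation and strand setting are not given. The order of genes by level is therefore approximate. On this scale the members spanned a wide range, and most of their RNA sat in a few genes. In 3M controls the highest mean levels were 505 CPM for Fzd4, 465 CPM for Sfrp1 (a secreted Frizzled-related antagonist), 440 CPM for Gsk3b (the kinase of the destruction complex), 374 CPM for Ctnnb1 (beta-catenin itself), 152 CPM for Sfrp5 (another antagonist of that family) and 118 CPM for Lrp6. Mean levels of the Dishevelled genes Dvl1, Dvl2 and Dvl3, which relay the signal from Frizzled, lay between 20.6 and 33.6 CPM in the same libraries. Among the TCF/LEF factors, Tcf7l2 averaged 57.1 CPM and Tcf7l1 25.1 CPM in 3M controls, whereas Lef1 had 98 counts and Tcf7 56 counts in all 24 libraries together. Wnt ligands were scarce. Wnt5a had a mean of 27.7 CPM in P11 controls, and in 3M controls Wnt5a averaged 2.55 CPM and Wnt5b 3.62 CPM. Wnt2b had 19 counts and Wnt7b 10 counts in the whole series.

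The members left untested were Lef1, Tcf7, Notum, Dkk1, Wif1, Wnt2b, Wnt7b, Ror1, Ror2, Rspo1 and Celsr1. Notum, which encodes a Wnt-inactivating enzyme, had no count in any library. Dkk1, an Lrp5 and Lrp6 antagonist, had 3 counts, Rspo1, an R-spondin, 3, and Wif1, a Wnt-binding antagonist, 6. Ror1 had 99 counts and Ror2 25, both being Wnt5a co-receptors. Celsr1, a planar polarity cadherin, had 11 counts, of which 10 came from control replicate 2 at P11. At these levels no genotype difference was detectable, which does not show that there was none.

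Whether Wnt and polarity genes differ between Ift20-floxed mutants and controls was first asked at P11. A member counted as called when its p in the quasi-likelihood test of edgeR, adjusted by Benjamini-Hochberg over all 12303 genes, was under 0.05. At this age 4 of the 36 tested members were lower in mutants and 0 were higher: the Frizzled receptor genes Fzd4, Fzd6 and Fzd7 and the planar polarity gene Vangl1. In GENCODE on GRCm38 these protein-coding genes lie at chr7:89404355-89413134 (Fzd4, plus strand), chr15:39006034-39038188 (Fzd6, plus), chr1:59482424-59486955 (Fzd7, plus) and chr3:102153583-102204693 (Vangl1, minus). They are 11.1% of the tested members, and 6.93% of all tested genes were called at P11, 3.26% higher and 3.67% lower in mutants. The median log2 fold change, mutant over control, was -0.10 over the tested members and 0.00 over all tested genes. Before adjustment 8 of the 36 members had p under 0.05 (7 of them lower in mutants), beside 18.6% of all tested genes in either direction.

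Fzd4 encodes the receptor for the ligand norrin as well as for Wnts and is known for its role in retinal blood vessels. Its level was 115.5, 119.9, 126 and 179.9 CPM in the 4 P11 mutant libraries, against 194.8, 191.3, 204.4 and 187.6 CPM in P11 controls. Every mutant library lay below every control library, with mutant replicate 4 close to the controls. This is a log2 fold change of -0.52 (SE 0.10, edgeR adjusted p = 5.48e-05), a level 1.43-fold lower in mutants. The call held without each library in turn, with log2 fold changes between -0.69 and -0.45.

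At P29 the same receptor gene stood at 345.3, 337.2, 318.5 and 343.3 CPM in mutants, against 504.4, 541.1, 416.7 and 471.6 CPM in controls. The groups again did not overlap, and the mutant libraries lay close together. The groups differed by -0.52 on the log2 scale (SE 0.09, edgeR adjusted p = 7.73e-06), and -0.59 to -0.47 on leaving out 1 library. By 3M Fzd4 was at 496.6, 459.2, 483.7 and 480.4 CPM in mutants and 523, 501.3, 485.1 and 511.6 CPM in controls, and the groups overlapped. The 3M log2 fold change was -0.07, with a 95% interval (1.96 SE either side) of -0.25 to 0.10 and an edgeR adjusted p of 0.869.

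RPE markers also differed between genotypes. At P11, 8 of 11 tested RPE markers were lower in mutants and 0 higher (median log2 fold change -0.28). At P29, 4 were lower and 2 higher (median -0.21), with summed levels of 43131 to 45636 CPM in mutants and 49983 to 50931 CPM in controls, and at 3M 1 was lower (median -0.07). Endothelial markers, 13 genes that include Pecam1 and Cdh5, summed to 219 to 276 CPM in P11 mutants and 491 to 523 CPM in P11 controls, with 6 of 12 tested markers lower in mutants and Erg at 0 in the controls. At P29 the direction of the endothelial sum was the opposite of that of Fzd4, at 137 to 154 CPM in mutants and 85.2 to 114 CPM in controls. Other markers differed more at P29. Lens markers summed to 937 to 1038 CPM in mutants and 42.4 to 56.5 CPM in controls (9 of 10 tested higher in mutants). Stratified epithelium markers summed to 59.9 to 83.4 CPM in mutants and 0.369 to 6.07 CPM in controls (Krt12 at 0 in mutants and Krt14 in controls). Only 3 of these 8 markers were tested. Control sums over all 8 were at most 6.07 CPM at any age, beside the filter cutoff of 4.19 CPM for a gene. The tested ones passed the filter only with mutant libraries, where they are high, so their calls support nothing. The part of these cell types in the Fzd4 result and in the other P29 genotype values was not tested, and in bulk RNA fewer cells of a type and less RNA per cell cannot be told apart.

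**Figure D1:**
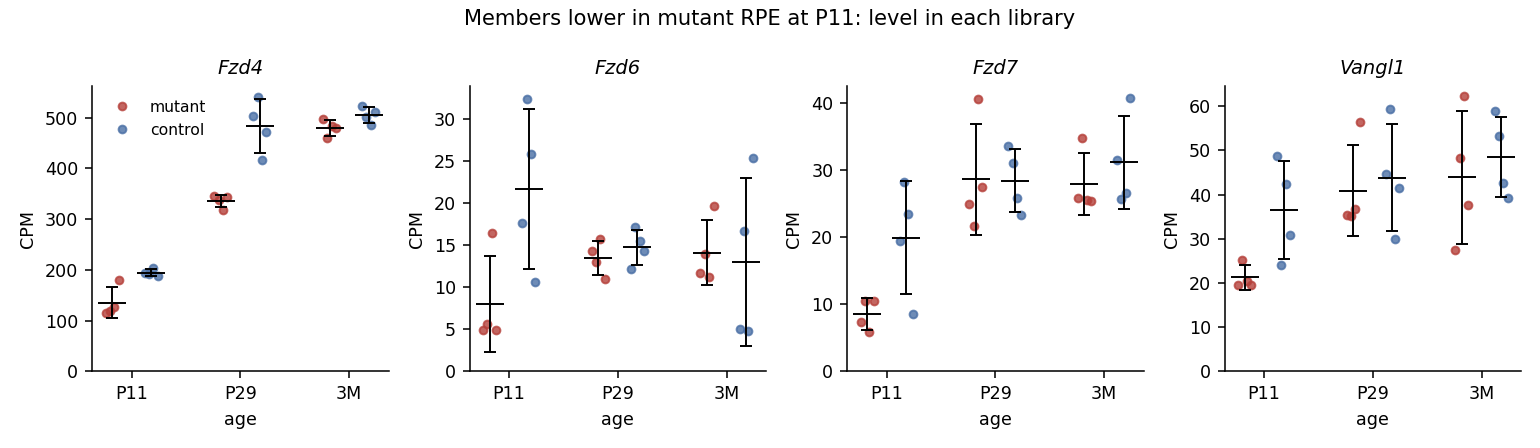
Level in CPM of Fzd4, Fzd6, Fzd7 and Vangl1 in each library (points), with the mean and SD of the 4 libraries of a group (black), at P11, P29 and 3M. Mutants stand left of controls at each age; the groups of Fzd4 are apart at P11 and P29 and overlap at 3M, while those of the other 3 genes overlap at every age.

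Fzd6 and Fzd7 are less abundant receptors; mouse Fzd6 works in planar polarity, for example in the orientation of hair. Fzd6 stood at 4.91, 5.67, 16.5 and 4.87 CPM in P11 mutants, against 17.7, 32.5, 25.9 and 10.6 CPM in P11 controls. The ranges overlapped through mutant replicate 3, which lay above control replicate 4. Fzd6 had a log2 fold change of -1.42 (SE 0.41, edgeR adjusted p = 0.0176), and of -2.05 without mutant replicate 3 (adjusted p = 0.00153). It lost the call without control replicate 2 (-1.17 on the log2 scale, adjusted p = 0.1), control replicate 3 (-1.32, 0.0538), mutant replicate 1 (-1.25, 0.0803), mutant replicate 2 (-1.29, 0.074) or mutant replicate 4 (-1.24, 0.0837), each by edgeR, and with voom (-1.49, 0.0699).

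Fzd7, in P11 mutants, was at 7.37, 10.5, 5.81 and 10.6 CPM, against 19.4, 28.3, 23.4 and 8.5 CPM in P11 controls. In 3 control libraries it exceeded every mutant library, and control replicate 4 lay within the mutant range. Fzd7 thus had a log2 fold change of -1.20 (SE 0.32, edgeR adjusted p = 0.00822). It was -0.99 without control replicate 2 (adjusted p = 0.0567), -1.22 in a fit of only the 8 P11 libraries (adjusted p = 0.072) and -1.10 with voom (adjusted p = 0.135). These edgeR and voom values keep the direction and lose the call.

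Vangl1, a membrane protein of the planar polarity core, was at 19.65, 25.3, 20.55 and 19.5 CPM in P11 mutants, against 48.8, 24.1, 42.4 and 30.8 CPM in P11 controls. Control replicate 2 fell within the mutant range and the other 3 control libraries lay above it. Between the groups Vangl1 differed by -0.79 on the log2 scale (SE 0.24, edgeR adjusted p = 0.0284). Without control replicate 1 it was -0.61 (adjusted p = 0.191), and the edgeR call was also lost without control replicate 3 (-0.73, 0.079) or mutant replicate 1 (-0.76, 0.0749), 3 (-0.78, 0.0636) or 4 (-0.75, 0.0783), in the fit of only the P11 libraries (-0.80, 0.0939) and with voom (-0.78, 0.181). Its paralog Vangl2 had 26 CPM ± 7.35 in P11 mutants and 32.7 CPM ± 6.15 in P11 controls (SD, n = 4 each; log2 fold change -0.33, edgeR adjusted p = 0.579).

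At P29 and 3M these 3 genes were not called. The log2 fold change of Fzd6 was -0.13 at P29 and 0.12 at 3M, that of Fzd7 0.01 and -0.16, and that of Vangl1 -0.10 and -0.15, with edgeR adjusted p between 0.926 and 0.996. Several cell types had lower marker levels in P11 mutants, when the 3 genes were low. Pericyte and smooth muscle markers summed to 172 to 220 CPM in P11 mutants and 348 to 388 CPM in P11 controls (4 of 8 tested lower), stromal fibroblast markers to 2533 to 2803 and 3074 to 3392 CPM (2 of 11 lower, with Twist2 at 0 in both groups), and myelinating glia markers to 105 to 141 and 442 to 571 CPM (6 of 7 lower). Choroidal melanocyte markers summed to 171 to 180 CPM in P11 mutants and 202 to 306 CPM in P11 controls (2 of 5 tested lower). Lens markers summed to 51 to 67 and 112 to 157 CPM (4 of 10 lower, with Birc7 at 0 in both groups). Other markers were higher in P11 mutants. Inner retinal neuron markers summed to 552 to 597 and 382 to 443 CPM (2 of 12 higher). Stratified epithelium markers summed to 9.83 to 25.1 and 0 to 5.31 CPM, with Krt14 and Krt12 at 0 in both groups. Their calls are not counted, because the tested ones passed the filter only with mutant libraries. Mitochondrial transcripts took 10.3% to 11.2% of gene counts in P11 mutants and 7.3% to 8.79% in P11 controls. The part of these cell types and of RNA quality in the P11 results was not tested.

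Apart from Fzd4, no member was called at P29, so the count was 1 lower and 0 higher. That is 2.78% of the tested members, beside 2.84% of all tested genes (1.63% higher and 1.21% lower). The median log2 fold change at P29 was 0.04 over the members and 0.00 over all genes. In the 3M comparison 0 of 36 members were called by edgeR and 0 by DESeq2, 1 with voom (Fzd8, lower) and 1 in a fit of only the 3M libraries (Fzd8). Before adjustment 3 members had p under 0.05 at 3M: Prickle1 and Dkk3 with values above and Fzd8 with values below the controls. Such a p was found for 11.3% of all tested genes. Of all genes 2.61% were called at 3M, 2.13% higher and 0.48% lower.

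**Figure D2:**
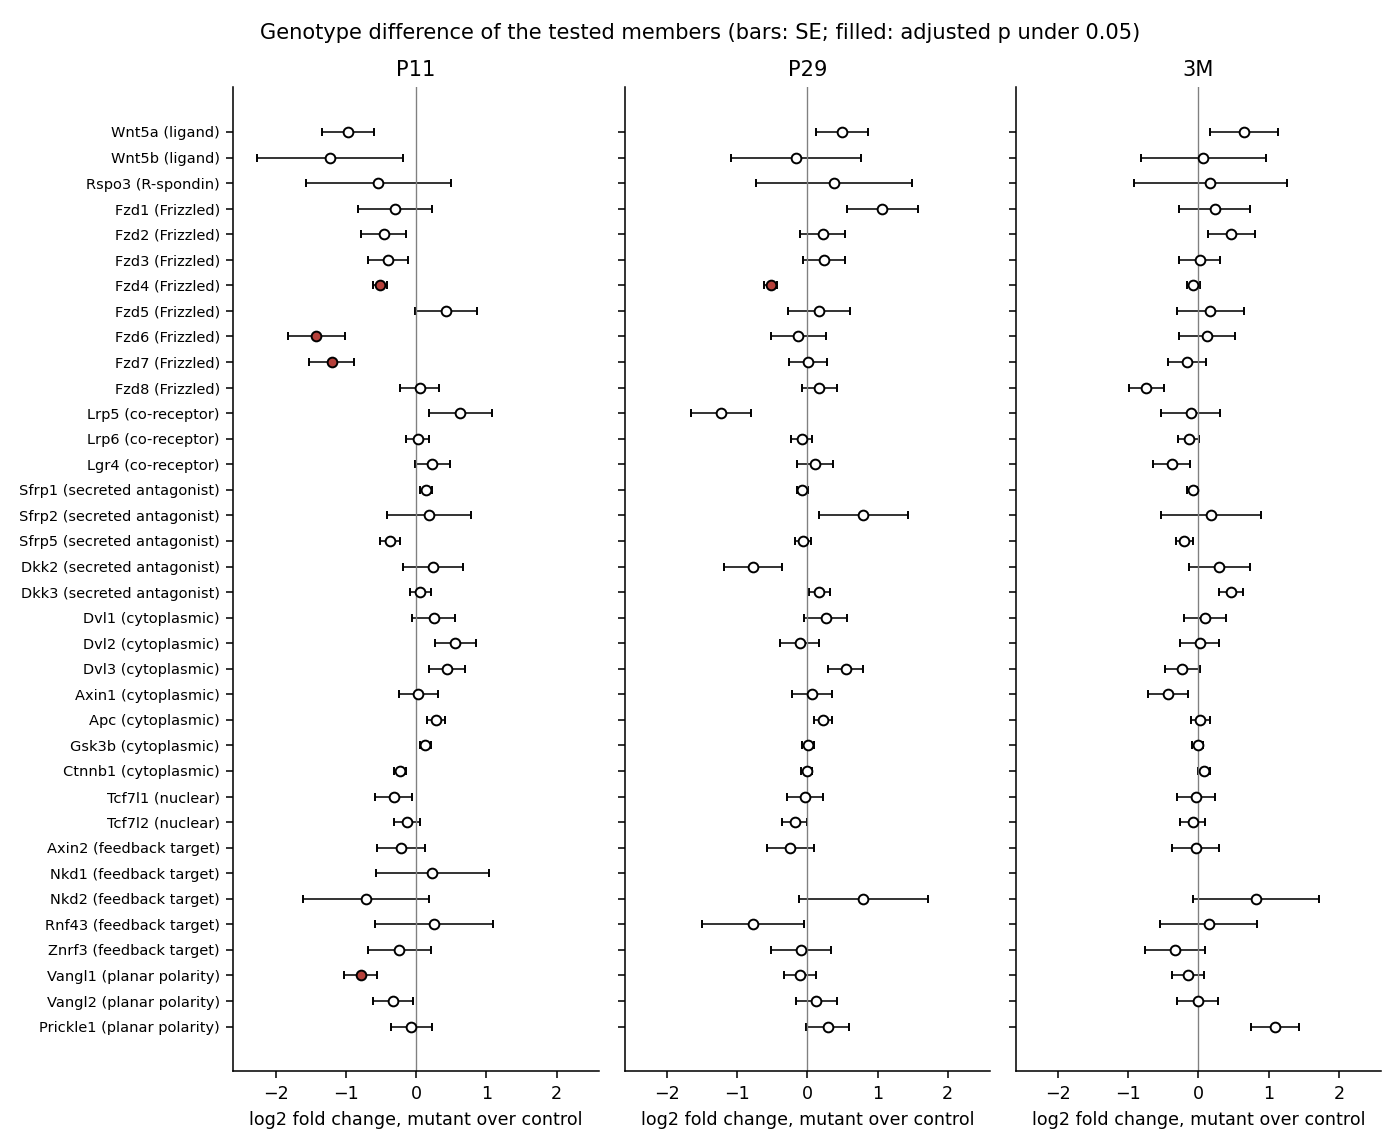
Log2 fold change, mutant over control, of the 36 tested members at P11, P29 and 3M, ordered by role, with SE bars; filled points passed an edgeR adjusted p under 0.05. Filled points are Fzd4, Fzd6, Fzd7 and Vangl1 at P11 and Fzd4 at P29, all below 0; Nkd1 is not drawn at P29 and 3M, where controls had 0 and 3 counts.

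Summed as a family, the 8 listed Frizzled genes were lower in mutants at P11 and P29, and without Fzd4 the P29 sum was not lower. Their summed level was 240 CPM ± 32 in P11 mutants and 336 CPM ± 26.5 in P11 controls, 477 CPM ± 5.46 in P29 mutants and 608 CPM ± 58.9 in P29 controls, and 594 CPM ± 14.2 in 3M mutants and 632 CPM ± 26.8 in 3M controls (SD, n = 4 each). The sums did not overlap at P11 or P29. Without Fzd4 the other 7 genes summed to 105 CPM ± 5.91 in P11 mutants and 142 CPM ± 20.8 in P11 controls, 141 CPM ± 15.4 in P29 mutants and 125 CPM ± 8.14 in P29 controls, and 114 CPM ± 16 in 3M mutants and 126 CPM ± 21.9 in 3M controls. Fzd4 made up 55.9% of the sum in P11 mutants and 58% in P11 controls. At P29 its share was 70.5% ± 2.98 in mutants and 79.5% ± 1.21 in controls, and at 3M 80.9% and 80.1%. Fzd8 had a share of 7.03% in P29 mutants and 4.94% in P29 controls, against 4.03% in 3M mutants and 6.32% in 3M controls. These sums and shares are given as a description with no test.

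**Figure D3:**
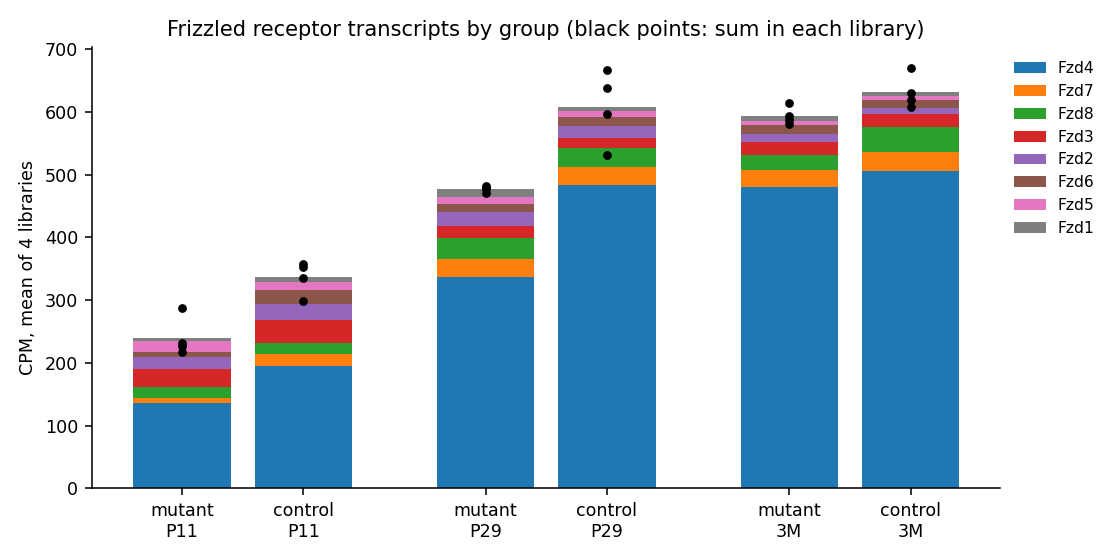
Mean CPM of the 8 Frizzled genes stacked by group, with black points for the sum in each of the 4 libraries. Fzd4 is the tallest segment in every group, and the sums in mutants lie below those in controls at P11 and P29.

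Did the genotype difference itself change with age? For the change in genotype effect from P11 to P29, edgeR called 0 of 36 members, beside 2.63% of all genes (1.45% higher and 1.18% lower). Before adjustment 5 members had p under 0.05 in edgeR, beside 13.6% of all genes. DESeq2 called 2 (Lrp5 and Wnt5a) and voom 1 (Wnt5a). From P29 to 3M edgeR called 0, beside 0.853% of all genes (0.61% higher and 0.244% lower). Here 3 members had an unadjusted p under 0.05 in edgeR, beside 9.27% of all genes. DESeq2 called 0, voom 1 (Fzd4) and the fit of only the libraries compared 1 (Fzd4). The effect on Fzd4 differed between 3M and P29 by 0.45 on the log2 scale (SE 0.12), with an edgeR adjusted p of 0.0513 that misses the threshold. Between P29 and P11 the Fzd4 effect differed by -0.01 (95% interval -0.27 to 0.25). For Fzd6 the difference was 1.29 (adjusted p = 0.269), for Fzd7 1.20 (0.113) and for Vangl1 0.70 (0.322), so a loss of their P11 difference by P29 was not shown by this test.

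Among the ligands, Wnt5a had values that did not overlap at P11 or P29, in opposite directions. Wnt5a was at 11.8, 13.5, 14.7 and 16.6 CPM in P11 mutants, against 36.1, 24.1, 24.7 and 26 CPM in P11 controls. At P29 it stood at 15.2, 15, 16.6 and 22.7 CPM in mutants, against 9.6, 13.2, 12.5 and 14.4 CPM in controls. On the log2 scale the P11 difference was -0.97 (SE 0.37, edgeR adjusted p = 0.0984) and the P29 one 0.49 (SE 0.37, adjusted p = 0.713), neither of them past the threshold in edgeR; at P11 it was called by DESeq2 and voom. The change in effect between these ages was 1.46 (SE 0.52, edgeR adjusted p = 0.13). Stromal and endothelial marker sums, given above, were also lower in P11 mutants. At P29 stromal fibroblast markers summed to 1814 to 1901 CPM in mutants and 1962 to 2094 CPM in controls. Endothelial markers at P29 summed to 137.5 to 154.4 CPM in mutants and 85.2 to 113.9 CPM in controls. The part of these cell types in the Wnt5a values was not tested.

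Groups did not overlap for 4 members at P11 (Apc, Ctnnb1, Wnt5a and Fzd4), for 5 at P29 (Dvl3, Wnt5a, Lrp5, Fzd1 and Fzd4) and for 2 at 3M (Prickle1 and Fzd8), where 10.3%, 7.75% and 8.07% of all tested genes had groups that did not overlap. Except for Fzd4, none of these passed the edgeR threshold. Lrp5, a co-receptor whose loss in mice leaves the retina poorly vascularised, was at 8.8, 7.1, 6 and 3.9 CPM in P29 mutants, against 10.4, 19.5, 21 and 9.4 CPM in P29 controls (log2 fold change -1.23, adjusted p = 0.125). Prickle1, a cytoplasmic planar polarity protein, was at 9.8, 15.7, 12.6 and 16.6 CPM in 3M mutants, against 7.2, 5.4, 5.7 and 7.3 CPM in 3M controls (log2 fold change 1.09, SE 0.34, adjusted p = 0.0706). Fzd8 was at 21.9, 34.4, 20.7 and 18.8 CPM in 3M mutants, against 34.5, 39.8, 41.4 and 44 CPM in 3M controls (-0.74, SE 0.25, adjusted p = 0.12).

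None of the tested genes of the beta-catenin route core was called between genotypes by edgeR, DESeq2 or voom, although the P11 intervals of Ctnnb1 and Apc lay off 0 (unadjusted p = 0.00906 and 0.0269) and their P11 groups did not overlap. Ctnnb1 averaged 278 CPM ± 19 in P11 mutants and 326 CPM ± 13.5 in P11 controls (SD, n = 4 each; log2 fold change -0.23, 95% interval -0.39 to -0.06, edgeR adjusted p = 0.0949). At P29 its 95% interval was -0.18 to 0.15 and at 3M -0.09 to 0.24. For Gsk3b the intervals were -0.03 to 0.29 at P11, -0.15 to 0.17 at P29 and -0.17 to 0.15 at 3M. Apc, the scaffold of the destruction complex, averaged 191 CPM ± 6.13 in P11 mutants and 157 CPM ± 17.9 in P11 controls (log2 fold change 0.28, 95% interval 0.04 to 0.53, adjusted p = 0.186). Tcf7l2 had log2 fold changes of -0.13, -0.18 and -0.08 at P11, P29 and 3M, with adjusted p of 0.768, 0.809 and 0.959. The 3' ends of Ctnnb1, Sfrp2, Dvl1 and Dvl2 overlap a gene on the other strand, and no source used here says whether the counting used strand, so their values are uncertain.

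Feedback targets were low, and none was called between genotypes. Axin2 had means of 13.5 CPM ± 4 in P11 mutants and 15.1 CPM ± 7.22 in P11 controls, 18.5 CPM ± 4.48 in P29 mutants and 22 CPM ± 7.76 in P29 controls, and 16.2 CPM ± 4.64 in 3M mutants and 16.8 CPM ± 1.45 in 3M controls (SD, n = 4 each). Its log2 fold changes were -0.21, -0.24 and -0.04 at P11, P29 and 3M, with 95% intervals of -0.88 to 0.46, -0.88 to 0.40 and -0.70 to 0.61. Rnf43 and Znrf3, the ligases that remove Frizzled from the cell surface, averaged 8.61 and 9.98 CPM in 3M mutants and 7.73 and 12.6 CPM in 3M controls, and neither was called at any age.

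No secreted antagonist passed the threshold between genotypes with all libraries. Sfrp5 averaged 51.9 CPM ± 7.87 in P11 mutants and 66.9 CPM ± 10.6 in P11 controls (SD, n = 4 each; log2 fold change -0.37, edgeR adjusted p = 0.102), and it was called, lower in mutants, only without control replicate 3. The summed level of Sfrp1, Sfrp2 and Sfrp5 was 553 CPM ± 40.6 in P11 mutants and 522 CPM ± 17.4 in P11 controls. Dkk3, a Dickkopf family member whose action on Wnt signalling is not settled, was at 59.4 CPM ± 13.5 in 3M mutants and 42.9 CPM ± 14.2 in 3M controls (log2 fold change 0.47, adjusted p = 0.153). Dkk3 was called, higher in mutants, only without control replicate 4 or mutant replicate 3.

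More members were called for age than for genotype. In controls, 7 were higher and 6 lower at P29 than at P11 (36.1% of the tested members, beside 32% of all genes, 16.5% higher and 15.6% lower), and 0 higher and 6 lower at 3M than at P29 (16.7%, beside 12% of all genes, 3.49% higher and 8.5% lower). In mutants, 7 were higher and 3 lower at P29 than at P11 (27.8%, beside 31.7% of all genes, 16.4% higher and 15.2% lower), and 1 higher and 4 lower at 3M than at P29 (13.9%, beside 12.7% of all genes, 5.44% higher and 7.27% lower). Values of the ages compared did not overlap for 10 members at P29 against P11 in mutants (31.3% of all genes) and 12 in controls (27.6%), and for 6 members at 3M against P29 in mutants (18.1%) and 5 in controls (15%). These shares lie near those of all genes. The P29 libraries enter both age steps, and the genotype comparisons use the same libraries, so these counts are not independent of each other.

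The Frizzled genes did not move together with age. Fzd4, with the library values given above, had the smallest p of all members: it was higher at P29 than at P11 by 1.31 on the log2 scale (SE 0.09) in mutants (edgeR adjusted p = 5.66e-23) and by 1.31 (SE 0.09) in controls (adjusted p = 1.57e-23). From P29 to 3M it rose by another 0.51 (SE 0.09, adjusted p = 3.56e-06) in mutants, while in controls the difference was 0.06 (95% interval -0.11 to 0.24, adjusted p = 0.75). RPE markers were also higher at P29 than at P11, 9 of 11 in mutants and 9 of 11 in controls (median log2 fold change 1.02 and 1.12). At 3M against P29, 7 of 11 RPE markers were higher and 2 lower in each genotype. The median log2 fold change of this step was 0.39 in mutants and 0.25 in controls, where Fzd4 was not called. The part of RPE markers in the Fzd4 course was not tested. Of 12 tested endothelial markers, 12 were lower at P29 than at P11 in controls (median log2 fold change -2.45). In mutants 2 of the 12 were lower (median -0.30). The part of endothelial cells in the Fzd4 course was not tested either.

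Fzd3, which works with Fzd6 in axon guidance and planar polarity in mice, was lower at P29. In mutants Fzd3 was at 28, 28.8, 21 and 34.9 CPM at P11, 13.4, 21.7, 28.6 and 15.7 CPM at P29 and 30.1, 19.6, 20.7 and 11.3 CPM at 3M. In controls it was at 38.8, 46.3, 27.8 and 36.1 CPM at P11, 13.2, 25.1, 11.4 and 17.8 CPM at P29, and 17.2, 13.6, 25.7 and 24.2 CPM at 3M. In controls the P11 values lay above all P29 values, and in mutants these ages overlapped. The log2 fold change, P29 over P11, was -1.15 (SE 0.29, edgeR adjusted p = 0.000958) in controls and -0.51 (adjusted p = 0.188) in mutants. Fzd8 rose by 0.92 in mutants (SE 0.26, edgeR adjusted p = 0.0036) and by 0.80 in controls (SE 0.27, adjusted p = 0.014; up to 0.0936 in the fit of only the libraries compared or without control replicate 1 at P29). Fzd7 rose by 1.73 in mutants (SE 0.31, adjusted p = 1.88e-06), with 0.53 in controls (adjusted p = 0.154). Fzd2 was lower at 3M than at P29 in controls (-1.01, SE 0.34, adjusted p = 0.0332), a call lost with voom, without the low-count filter and on leaving out control replicate 1 or 2 at P29 or 1, 3 or 4 at 3M (adjusted p up to 0.113). Of the co-receptors, Lrp6 was higher at P29 than at P11 in mutants (0.39, adjusted p = 0.0412) and in controls (0.50, adjusted p = 0.00799), and Lrp5 in controls (1.24, adjusted p = 0.0215), with -0.62 in mutants (adjusted p = 0.311). For Lrp6 the mutant call was lost with DESeq2, DESeq2 size factors, voom and 5 of 8 libraries left out in turn (adjusted p up to 0.205), and the control call without control replicate 2 at P11 or 3 at P29 (up to 0.0801). For Lrp5 the control call was lost with voom, in the fit of only the libraries compared and without control replicate 2 or 4 at P11 or 2 or 3 at P29 (up to 0.0953).

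The ligand gene Wnt5a lost most of its RNA with age. Its means in mutants were 14.2 CPM ± 2.05 at P11, 17.4 CPM ± 3.63 at P29 and 4.04 CPM ± 2.48 at 3M (SD, n = 4), and in controls 27.7 CPM ± 5.64, 12.4 CPM ± 2.01 and 2.55 CPM ± 1.55. At 3M its single values ran from 1.7 to 7.4 CPM in mutants and from 0.9 to 4.2 CPM in controls, near the floor of 3 counts. The log2 fold change, 3M over P29, was -2.09 (SE 0.41, edgeR adjusted p = 6.38e-05) in mutants and -2.25 (SE 0.45, adjusted p = 6.17e-05) in controls. Between P29 and P11 it was 0.29 (adjusted p = 0.603) in mutants and -1.17 (SE 0.37, adjusted p = 0.00916) in controls, the control call being lost without control replicate 1 at P11 (-1.0, adjusted p = 0.0522). Stromal fibroblast markers, which summed to 1814 to 1901 CPM in P29 mutants and 1962 to 2094 CPM in P29 controls, were at 770 to 967 CPM in 3M mutants and 577 to 1184 CPM in 3M controls. Of 11 tested fibroblast markers 7 were lower at 3M in each genotype, and their part in the Wnt5a course was not tested.

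Antagonists called for age were higher at P29 than at P11 (Sfrp5 and Sfrp1) or lower at 3M than at P29 (Dkk3 and Dkk2). Dkk2 had a log2 fold change, 3M over P29, of -1.50 in controls (SE 0.42, edgeR adjusted p = 0.0088) and -0.42 in mutants (adjusted p = 0.63). Its control call was lost without control replicate 1 at P29 or 3 at 3M (adjusted p up to 0.0568). Sfrp5 in mutants was at 45.7, 62.4, 46 and 53.6 CPM at P11, 172, 131, 150 and 148 CPM at P29 and 132, 135, 138 and 128 CPM at 3M. In controls it was at 69.5, 74.6, 51.2 and 72.3 CPM at P11, 145, 174, 158 and 151 CPM at P29 and 177, 148, 130 and 155 CPM at 3M. In each genotype the P29 and 3M libraries all lay above the P11 ones. It was higher at P29 than at P11 by 1.53 on the log2 scale (SE 0.13, edgeR adjusted p = 6.72e-18) in mutants and by 1.22 (SE 0.13, adjusted p = 1.62e-13) in controls. Sfrp1, at 491, 502 and 439 CPM on average in P11, P29 and 3M mutants and 445, 526 and 465 CPM in controls, was called higher at P29 in controls only (0.24, adjusted p = 0.0106), and it was not called with DESeq2, with DESeq2 size factors or without control replicate 1 or 2 at P29. Dkk3 in mutants was at 116, 124, 138 and 118 CPM at P11, 99.6, 120, 86.3 and 137 CPM at P29 and 72.7, 57.9, 41.3 and 65.5 CPM at 3M. In controls it was at 134, 119, 108 and 112 CPM at P11, 97.4, 82.1, 107 and 108 CPM at P29 and 30.3, 31.2, 52.3 and 57.8 CPM at 3M. In each genotype all 3M values lay below all earlier ones. Its log2 fold change, 3M over P29, was -0.90 (SE 0.16, adjusted p = 7.96e-06) in mutants and -1.20 (SE 0.16, adjusted p = 9.68e-09) in controls. Rod markers, 10 of 10 tested, were also lower at 3M than at P29 in each genotype; their part in the Dkk3 course was not tested.

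Apc fell with age at each step. In mutants Apc was at 190, 184, 198 and 194 CPM at P11, 115, 113, 91.4 and 92.1 CPM at P29 and 55.5, 62.7, 63.3 and 83.8 CPM at 3M. In controls it was at 182, 141, 156 and 148 CPM at P11, 78.5, 89.6, 101 and 82.2 CPM at P29 and 62.7, 66.4, 67.1 and 63.8 CPM at 3M. The ages did not overlap in either genotype. P29 less P11, the log2 difference was -0.90 (SE 0.13, edgeR adjusted p = 5.37e-09) in mutants and -0.84 (SE 0.13, adjusted p = 6.5e-08) in controls. From P29 to 3M it was -0.63 (SE 0.13, adjusted p = 0.000201) in mutants and -0.44 (SE 0.13, adjusted p = 0.0189) in controls. The last of these edgeR calls was lost without control replicate 3 at P29 (-0.36, adjusted p = 0.108) or control replicate 1 at 3M (-0.42, adjusted p = 0.0536). Ctnnb1 was higher at P29 than at P11, by 0.49 in mutants (adjusted p = 9.78e-07) and 0.28 in controls (adjusted p = 0.00637), so the members of the destruction complex route did not share a direction.

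Nkd1, a feedback inhibitor that binds Dishevelled, was found almost only at P11. It had 19, 10, 38 and 18 counts in the P11 mutant libraries and 19, 10, 9 and 27 counts in the P11 control libraries. At P29 it had 1, 0, 0 and 5 counts in mutants and none in the 4 controls, and at 3M 4, 3, 1 and 0 counts in mutants and 0, 0, 2 and 1 in controls. Against a floor of 3 counts over the group, the P29 level in controls was at least 27.6-fold lower than at P11. Nkd1 reached the filter's cutoff in 8 libraries at P11 and in none later, so it had to differ with age: no test of it is given, and its calls in the age counts above support nothing. The other feedback genes did not share this: Axin2 was not called at any age step in either genotype, with log2 fold changes, P29 over P11, of 0.46 in mutants and 0.49 in controls (adjusted p = 0.329 and 0.274).

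Among planar polarity genes, Prickle1 fell at each age step in controls and at the first step in mutants. In mutants Prickle1 was at 38.8, 31.4, 27.7 and 43.5 CPM at P11, 18.9, 18.9, 16.2 and 16.5 CPM at P29 and 9.78, 15.7, 12.6 and 16.6 CPM at 3M. In controls it was at 28.7, 62.6, 25.9 and 31.9 CPM at P11, 11.1, 20.7, 17 and 8.4 CPM at P29 and 7.2, 5.4, 5.7 and 7.3 CPM at 3M. The 3 ages did not overlap in controls. Between P29 and P11 the log2 difference was -1.0 (SE 0.30, edgeR adjusted p = 0.00533) in mutants and -1.36 (SE 0.30, adjusted p = 0.000153) in controls. Between 3M and P29 it was -0.37 (adjusted p = 0.541) in mutants and -1.16 (SE 0.34, adjusted p = 0.012) in controls, where the call was lost without control replicate 2 at P29 (-0.93, adjusted p = 0.0938), with voom (-1.05, 0.107) and in the fit of only the libraries compared (-1.16, 0.0546). Vangl2 was lower at P29 than at P11 in controls (-0.81, adjusted p = 0.019, and up to 0.0816 without control replicate 4 at P11 or 1 or 4 at P29; -0.35 and adjusted p = 0.375 in mutants), and Vangl1 was higher in mutants (0.95, adjusted p = 0.00097; 0.25 and adjusted p = 0.448 in controls). Inner retinal neuron markers, 12 genes, also fell with age: their sums were 552 to 597 CPM at P11, 140 to 160 CPM at P29 and 71.2 to 88.9 CPM at 3M in mutants, and 382 to 443, 91.8 to 113 and 46.7 to 83.7 CPM in controls. At P29 against P11, 11 of the 12 were called lower in each genotype, and at 3M against P29 3 in mutants and 5 in controls. Their part in the age courses of Prickle1, Fzd3 and Apc was not tested.

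**Figure D4:**
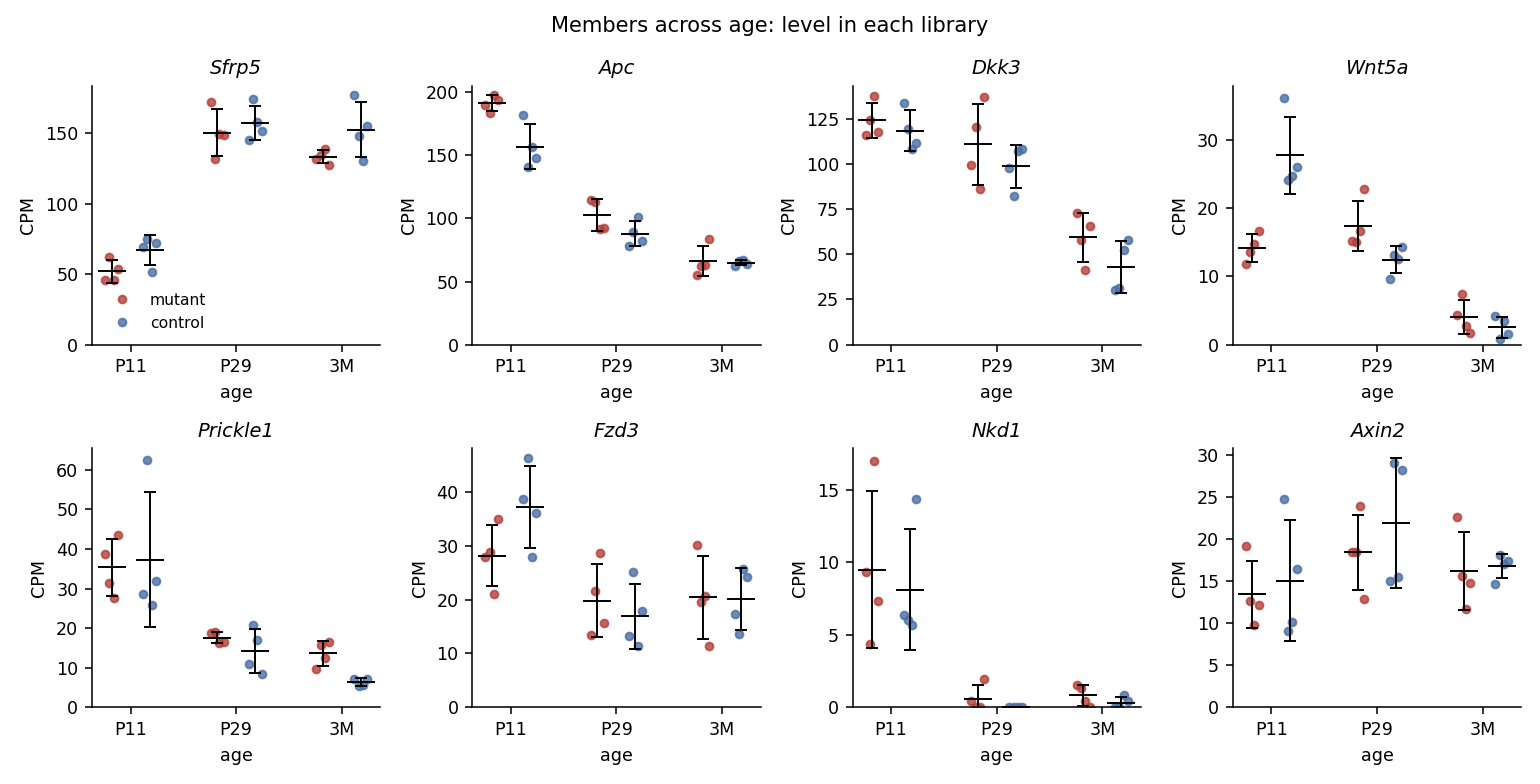
Level in CPM of 8 members in each library (points) at P11, P29 and 3M, with the mean and SD of 4 libraries (black) and mutants left of controls. Sfrp5 is higher and Apc, Prickle1 and Nkd1 are lower at P29 than at P11 in both genotypes, Dkk3 and Wnt5a are lowest at 3M, and Axin2 stays between 9.02 and 29.1 CPM throughout.

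Other genes of the pathway were read from 7 lists of 143 genes, of which 141 were in the count tables and 100 were tested. At P11, 4 were higher and 7 lower in mutants (11% of the 100, beside 6.93% of all tested genes, 3.26% higher and 3.67% lower). At P29 1 was higher and 3 lower (4%, beside 2.84%, with 1.63% higher and 1.21% lower), and at 3M 3 were higher and 1 lower (4%, beside 2.61%, with 2.13% higher and 0.48% lower). None of the 25 tested genes of the destruction complex and beta-catenin turnover was called by edgeR between genotypes at any age. Wls, the carrier that brings Wnt proteins to the cell surface, was at 233 CPM ± 19.1 in P11 mutants and 324 CPM ± 19.5 in P11 controls (SD, n = 4 each; log2 fold change -0.48, edgeR adjusted p = 3.17e-05); at P29 the log2 fold change was -0.27 (adjusted p = 0.055). Gpc3, a glypican that binds Wnts at the cell surface, was lower at P11 (-0.37, adjusted p = 0.00338, and 0.0526 without control replicate 1).

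Of 14 tested nuclear co-factors, 3 were higher and 1 lower at P11. Tle4, a co-repressor of TCF/LEF factors, was at 118 CPM ± 11 in P11 mutants and 83.4 CPM ± 15.6 in P11 controls (SD, n = 4 each; log2 fold change 0.48, edgeR adjusted p = 0.00299; 0.0694 with voom and 0.0588 in the fit of only the P11 libraries). Crebbp, an acetyltransferase, had a log2 fold change of 0.40 (adjusted p = 0.00792; 0.081 without control replicate 1). Chd8, which binds beta-catenin, was higher at P11 (0.43, adjusted p = 0.0406) and at 3M (0.46, adjusted p = 0.0469), near the threshold at both ages and with adjusted p of up to 0.235 at P11 and 0.231 at 3M on leaving out 1 library, when 5 of 8 libraries at P11 and 7 of 8 at 3M ended the call; at 3M it was also not called by DESeq2 or without the low-count filter, and at P11 not by voom. The lower one was Ctbp1, a co-repressor (-0.55, SE 0.15, adjusted p = 0.0154; up to 0.174 with voom, in the fit of only the P11 libraries, or without control replicate 1 or mutant replicate 4); it is named after its value was seen. In the planar polarity and non-canonical list, with 38 tested genes, 1 was higher and 1 lower at P11, and 1 higher at 3M. Daam1, a formin of planar polarity signalling, was at 110 CPM ± 6.1 in P11 mutants and 75.5 CPM ± 9.55 in P11 controls (0.54, adjusted p = 0.00338). The gene called lower was Cdc42, a small GTPase of the cytoskeleton (-0.37, adjusted p = 0.00453; 0.0546 without control replicate 2), likewise named after its value was seen. Camk2b, a calcium-dependent kinase, had 14 counts over the 3M mutant libraries and none in 3M controls. It was at least 4.7-fold higher against a floor of 3 counts over the group (edgeR adjusted p = 0.0208). The adjusted p was 0.299 with voom, and up to 0.175 in edgeR without any 1 control library or mutant replicate 3. Camk2b averaged 44.5 CPM in P11 mutants and 25.8 CPM in P11 controls, but 1.53 CPM in 3M mutants, near the floor. Inner retinal neuron markers were also higher in 3M mutants (3 of 12 tested, median log2 fold change 1.58). Their part in the Camk2b value was not tested.

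Of 10 tested genes listed as beta-catenin targets in other tissues, 0 were higher and 3 lower at P11, 1 higher and 3 lower at P29, and 1 higher and 1 lower at 3M; the shares over all genes are those given above. Cldn1, a tight junction protein, was lower at each age, with log2 fold changes of -0.54, -0.34 and -0.62 at P11, P29 and 3M (edgeR adjusted p = 1.29e-05, 0.0126 and 7.78e-08); at P29 it was no longer called when control replicate 1 or 3 or mutant replicate 2 was left out (adjusted p up to 0.193). Jun, an AP-1 factor that also responds to stress, was lower at P11 (-0.82, adjusted p = 2.22e-09) and P29 (-0.57, adjusted p = 1.22e-06) and higher at 3M (0.34, adjusted p = 0.0178; up to 0.109 without control replicate 4 or mutant replicate 1 or 3). Ccnd1, a cyclin named after its value was seen, was the third gene lower at P11 (-0.30, adjusted p = 0.00925; up to 0.0685 with voom or in the fit of only the P11 libraries). Id2, an inhibitor of helix-loop-helix factors, was higher at P29 (0.56, adjusted p = 4.44e-07); the part of the lens and stratified epithelium markers, given above for P29, in this value was not tested. Vegfa was at 197 CPM ± 14.1 in P29 mutants and 250 CPM ± 20.7 in P29 controls (-0.35, adjusted p = 0.0309; up to 0.163 without control replicate 1, 3 or 4 or mutant replicate 1 or 4). The voom, DESeq2 and leave-one-out values of these genes kept the direction.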

How the data were processed

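Per the labels' protocols, libraries were made from total RNA with the QuantSeq 3' mRNA kit and read single-end. The authors deposited whole-number counts per Ensembl gene identifier, 1 table per library; STAR and mm10 come from the submitters' processing notes. Not given in the sources used here are the counter, its annotation, and whether strand or molecular identifiers were used. The 5 entries of a table that name no gene were left out of every step; 18.6% to 27.5% of reads fell in no feature, 0.192% to 0.322% were ambiguous and 31% to 37.2% aligned to several places. Symbols and positions came from GENCODE on GRCm38 (30934 of 31053 identifiers had a symbol). Members, gene lists and tests were chosen with earlier results of these data known.

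Tests used edgeR 4.0.16 (R 4.3.3), its quasi-likelihood fit with TMM normalisation (TMM factors 0.937 to 1.049, filterByExpr, robust fit, 1 mean per group over 24 libraries), with Benjamini-Hochberg adjustment over 12303 genes. CPM values are TMM-scaled. The test was checked on simulated counts. Library values are given for members called between genotypes and for the 8 members with the smallest p among those called for age in controls, plus members whose groups did not overlap, chosen after their values were seen; up to 4 other pathway genes are named per direction and age. Alternatives used DESeq2 1.42.0, voom of limma 3.58.1, other filters, a replicate block and leaving out each library. Each of 36 replicate pairs differed beyond sampling noise, with a chi-square per gene of 2.98 to 7.15. Figures were drawn with matplotlib 3.10.9 in Python 3.11.15.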

Additional observations from a re-analysis of the deposited data

Results flagged for a closer look

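Among members described by library, 65 groups of 4 libraries were searched for a library standing apart from the other 3 by Dixon's 95% critical value, and 7 were found; chance gives about 1 in 20. The highest library was mutant replicate 4 at P11 for Fzd4 (179.9 CPM, others 115.5 to 126), mutant replicate 3 at P11 for Fzd6 (16.53 CPM, others 4.87 to 5.67), mutant replicate 2 at 3M for Fzd7 (34.85 CPM, others 25.3 to 25.8) and mutant replicate 4 at P29 for Vangl1 (56.43 CPM, others 35.1 to 36.7). In controls at P11 it was replicate 4 for Nkd1 (14.35 CPM, others 5.7 to 6.35), replicate 1 for Wnt5a (36.1 CPM, others 24.1 to 26) and replicate 2 for Prickle1 (62.56 CPM, others 25.9 to 31.9). All 7 lie above their group, and no library appears more than once.

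The genotype effect differed between ages, by a test of the difference itself, for 4 of the other pathway genes named. Of the 100 other pathway genes tested, 1 was higher and 2 lower for P29 against P11, beside 2.63% of all genes. For 3M against P29, 1 was higher and 1 lower, beside 0.853% of all genes. It was lower at P29 than at P11 for the co-repressor Tle4 (-0.67 on the log2 scale, SE 0.16, edgeR adjusted p = 0.00436) and for the acetyltransferase Crebbp (-0.66, SE 0.15, adjusted p = 0.00236), and higher for Id2 (0.78, SE 0.12, adjusted p = 1.69e-06). Between 3M and P29 it was higher for Jun (0.91, SE 0.13, adjusted p = 2.41e-07) and lower for Id2 (-0.48, SE 0.12, adjusted p = 0.0195). No member passed this test in edgeR. For P29 against P11, 5 members had an unadjusted p under 0.05, beside 13.6% of all genes. For 3M against P29 it was 3 members, beside 9.27% of all genes.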

How the results depend on the processing

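For mutant against control at P11, 4 members were called, and 5 with DESeq2 (adding Wnt5a), 2 with voom (Fzd4 and Wnt5a), 2 in the fit of only the libraries compared (Fzd4 and Fzd6) and 2 to 4 on leaving out 1 library. The P29 count was 1 (Fzd4) under every alternative run. The 3M count of 0 was 1 (Fzd8) with voom, 1 (Fzd8) with only the libraries compared and 0 to 1 on leaving out 1 library. For the change of genotype effect from P11 to P29 the count of 0 was 2 with DESeq2, 1 with voom and 0 to 1 on leaving out 1 library; from P29 to 3M it was 1 with voom, 1 with only the libraries compared and 0 to 1 on leaving out 1 library. The cause was not tested. Leaving out 1 library gave 10 to 13 calls for P29 against P11 in controls, 4 to 6 for 3M against P29 in controls, 9 to 11 for P29 against P11 in mutants and 4 to 5 for 3M against P29 in mutants. For 32 single-gene results, 479 alternative values kept the direction. Of these, 417 also kept their side of the threshold and 62 lost it. The 479 include 15 values of Nkd1 for P29 against P11 in controls. Nkd1 passed the filter through P11 alone, so these values support nothing.

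With the replicate number as a block, the P11 count was 4, the P29 count 1 and the 3M count 0, and 1 of 32 single-gene calls was lost (Chd8 at 3M, adjusted p = 0.0533). Same-numbered libraries did not deviate together (correlations of -0.0181 to 0.0472; 4 of 12 libraries correlated best with their own number), so the numbers were not taken as pairs. Scaling by DESeq2 size factors moved the median of all genes by less than 0.1 on the log2 scale. Depth limits members under about 10 CPM: the 11 untested members allow no statement on genotype.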
